A study of Arabidopsis thaliana with 18 samples.

Results

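ARF2 (AT5G62000), ARF3 (AT2G33860, also called ETTIN) and ARF4 (AT5G60450) are the auxin response factor genes known as targets of the small RNAs made from the non-coding TAS3 transcripts. They were taken by locus, as 3 of the 33378 genes in the series, and each has a row of its own in the count tables, shared with no other gene. Expression was read from 18 mRNA-seq libraries of Arabidopsis thaliana plants of the Col-0 accession, which the labels describe as whole seedlings. The plants were collected 11 days after germination, with days of 18 h light and 6 h dark at an average of 22 °C. The 35S-RTL1-Myc plants (n = 2) carry a tagged RTL1 driven by 35S, a viral promoter active in most cell types, in a wild-type background. The dcl234 35S-RTL2 plants (n = 3) and the dcl234 35S-truncatedDCL1 plants (n = 1) carry RTL2 or a truncated DCL1 behind the same promoter in the dcl234 triple mutant, which lacks normal DCL2, DCL3 and DCL4, and dcl234 alone was sequenced as well (n = 3). The remaining groups are 35S-RTL2 in wild-type plants (n = 3), the RTL2 mutant rtl2-1 (n = 3) and Col-0 itself (n = 3). The labels name neither the alleles in dcl234 nor the number of transgenic lines or pooled plants, and do not say that replicates were separate cultures, so the p-values below reflect only differences among libraries, possibly of technical origin.

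Auxin response factors bind the promoters of auxin-regulated genes. ARF3 and ARF4 promote the identity of the lower (abaxial) leaf side and the change from juvenile to adult leaves, and ARF2 restrains organ and seed growth and promotes leaf ageing. The TAS3 pathway acts on their transcripts. In it, miR390, held by AGO7, directs cleavage of TAS3 RNA, and RDR6 and SGS3 make that RNA double-stranded. DCL4 with DRB4 cuts it into phased small RNAs, and those called tasiARFs guide cleavage of the ARF transcripts. DCL2 and DCL3 make other classes of small RNA, RTL1 is an RNase III-like enzyme known to cut double-stranded RNA before Dicer-like enzymes reach it, and RTL2 is a relative with a more limited known role in RNA processing.

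The sequences of this pathway are shown because they define why the 3 genes form a group. All were read from the RefSeq assembly TAIR10.1 at coordinates matched there, since the counts were made on TAIR9. The mature miR390a lies at chr2:16061971-16061991 (plus strand) and miR390b at chr5:23636961-23636981 (plus strand), with the seed, bases 2 to 8, in capitals and all 21 bases identical. The miR390 site near the 3′ end of TAS3 lies at chr3:5862343-5862363 (plus strand), with capitals for the bases that pair with miR390 and 5 mismatches. Windows 7 and 8, counted in steps of 21 bases upstream from the cut expected there, are predicted stretches that match the ARF genes. They lie at chr3:5862207-5862227 and chr3:5862186-5862206 (plus strand), with the 15 bases they share in capitals. The cut and the steps are predicted and no small RNA was read here, so the real small RNAs may start at a nearby base. Mismatches and gene counts below hold for the windows as counted.
miR390a: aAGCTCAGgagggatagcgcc
miR390b: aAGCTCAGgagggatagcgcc
TAS3 miR390 site: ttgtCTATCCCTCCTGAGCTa
TAS3 window 7: TCTTGACCTTGTAAGacccca
TAS3 window 8: TCTTGACCTTGTAAGgccttt

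The complementary sites in the ARF transcripts are given in the direction of the mRNA, with capitals for bases that pair with window 7. ARF2 has 1 site, at chr5:24913260-24913280 (plus strand). ARF3 has 2, at chr2:14325943-14325963 and chr2:14325823-14325843 (minus strand), and ARF4 has 2, at chr5:24309719-24309739 and chr5:24309509-24309529 (minus strand). Every site lies in coding sequence, within 1 exon, and has 3 mismatches to window 7.
ARF2 site: aaGGGTCTTgCAAGGTCAAGA
ARF3 site 1: gaGGGTCTTgCAAGGTCAAGA
ARF3 site 2: TaaGGTCTTgCAAGGTCAAGA
ARF4 site 1: TaaGGTCTTgCAAGGTCAAGA
ARF4 site 2: aaGGGTCTTgCAAGGTCAAGA
The ARF2 site and the second ARF4 site are the same 21 bases, as are the second ARF3 site and the first ARF4 site. The 2 sites start 120 bases apart in ARF3 and 210 bases apart in ARF4. On the sense strand of the longest transcript of 31464 genes, a stretch with at most 3 mismatches to window 7 or 8 was found in 8 genes (0.0254%), the 3 ARF genes among them and 0 of the 19 other ARF genes, and with at most 4 mismatches in 26 genes (0.0826%). Windows 7 and 8 were taken because they match the ARF genes, so the presence of the 3 among the 8 genes follows from that choice. No other window of TAS3 was searched. A match is a description of the letters and not a shown target. The longest run of bases shared by any pair of the 3 transcripts was 21 bases for ARF2 and ARF3, 23 for ARF2 and ARF4 and 25 for ARF3 and ARF4, and each run lay across these sites.

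**Figure D1:**
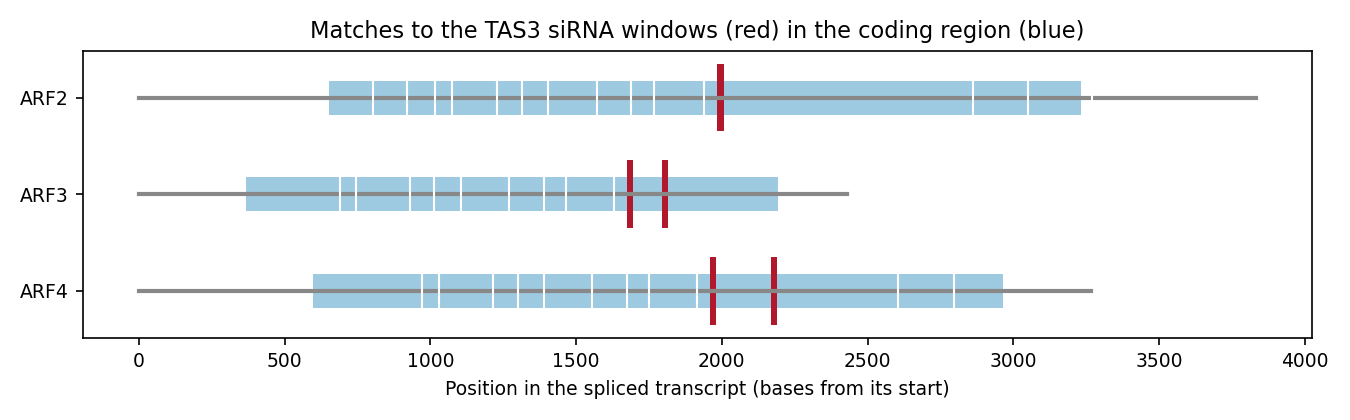
Spliced transcripts of ARF2, ARF3 and ARF4 drawn to scale in bases from the transcript start, with the coding region as a blue box, exon joints as white lines and the matches to the predicted TAS3 small RNA windows in red. ARF2 has 1 match and ARF3 and ARF4 have 2 each, all inside the coding region.

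The altered genes and the tissue were checked before the ARF genes were read. Library totals ran from 20775728 to 34874423 counts. RTL1 reached 1555 ± 42.0 CPM (counts relative to library size, scaled by TMM; SD over libraries) in 35S-RTL1-Myc, against 0.388 ± 0.202 CPM in Col-0. RTL2 reached 1829 ± 199 CPM in dcl234 35S-RTL2 and 557 ± 53.5 CPM in 35S-RTL2, and stood at 0.410 ± 0.159 CPM in rtl2-1, against 2.93 ± 0.0435 CPM in Col-0. The row that joins DCL3 to a neighbour held 3.24 ± 0.597 CPM in dcl234 and 20.3 ± 1.31 CPM in Col-0, and the row joined at DCL2 held 41.6 ± 1.04 and 69.9 ± 6.27 CPM. DCL4, the Dicer-like gene of the TAS3 pathway, had 28.1 ± 3.26 CPM in dcl234 (25.9 to 31.8) and 31.8 ± 4.29 CPM in Col-0 (27.1 to 35.4), so its RNA overlapped between the groups and gives no check of that mutation. Summed leaf markers (2 genes) ran from 9566 to 17113 CPM over libraries, while summed markers of root (3 genes) ran from 0.238 to 1.32 CPM and of seed (3 genes) from 0.0681 to 0.259 CPM. The root sums are low for samples that the labels call whole seedlings, and the presence of roots was not tested. The leaf sum was lower in 35S-RTL1-Myc, at 9566 to 9650 CPM, than in Col-0, at 12347 to 13801 CPM, without overlap, while dcl234 had 12504 to 12885 CPM. Of the 2 leaf genes, LHCB1.3 was called lower in 35S-RTL1-Myc (log2 change −1.02, SE 0.20, edgeR adjusted p = 0.00164) and RBCS1A differed by −0.06 (edgeR adjusted p = 0.832). The root sum was 0.238 to 0.290 CPM in 35S-RTL1-Myc and 0.267 to 0.438 CPM in dcl234, against 0.431 to 1.296 CPM in Col-0, and COBL9, the 1 root gene tested, was called lower in 35S-RTL1-Myc (log2 change −1.81, SE 0.56, edgeR adjusted p = 0.025). The part of these markers in the ARF levels was not tested. The floral organ genes AP3, PI and AG together held 231 to 361 CPM in every library, with none of the 3 at 0, although the labels say whole seedlings. By group their sum ran from 321 to 361 CPM in 35S-RTL1-Myc, 279 to 355 CPM in dcl234 and 293 to 342 CPM in Col-0, so these 3 groups overlapped. In dcl234 35S-RTL2 it was 245 to 273 CPM, below dcl234, Col-0 and the 291 to 342 CPM of 35S-RTL2 without overlap. However, in dcl234 35S-RTL2 against 35S-RTL2 edgeR called 0 of the 3 genes, beside 20.9% of all rows. Of the 3 genes, 2 had an unadjusted p below 0.05, and DESeq2 called 0. Their part in the ARF levels was not tested. In such bulk samples, fewer cells of a type and less RNA per cell cannot be told apart.

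Mean levels of ARF3 and ARF4 were 1.99 to 3.10 times those of Col-0 in 35S-RTL1-Myc and in every group on the dcl234 background, whereas no change of ARF2 passed the test in any comparison. Neither overexpression nor mutation of RTL2 in plants with wild-type DCL genes came with a call for any of the 3 genes, nor did RTL2 added to dcl234. The truncated DCL1 group is 1 library, whose ARF2 and ARF4 levels lay above all dcl234 libraries, and its lack of a call has no replicate check. Tests are edgeR's quasi-likelihood tests with Benjamini-Hochberg adjustment over all 21343 rows that passed a filter on low counts, called at an adjusted p below 0.05. All 3 genes passed that filter.

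**Figure D2:**
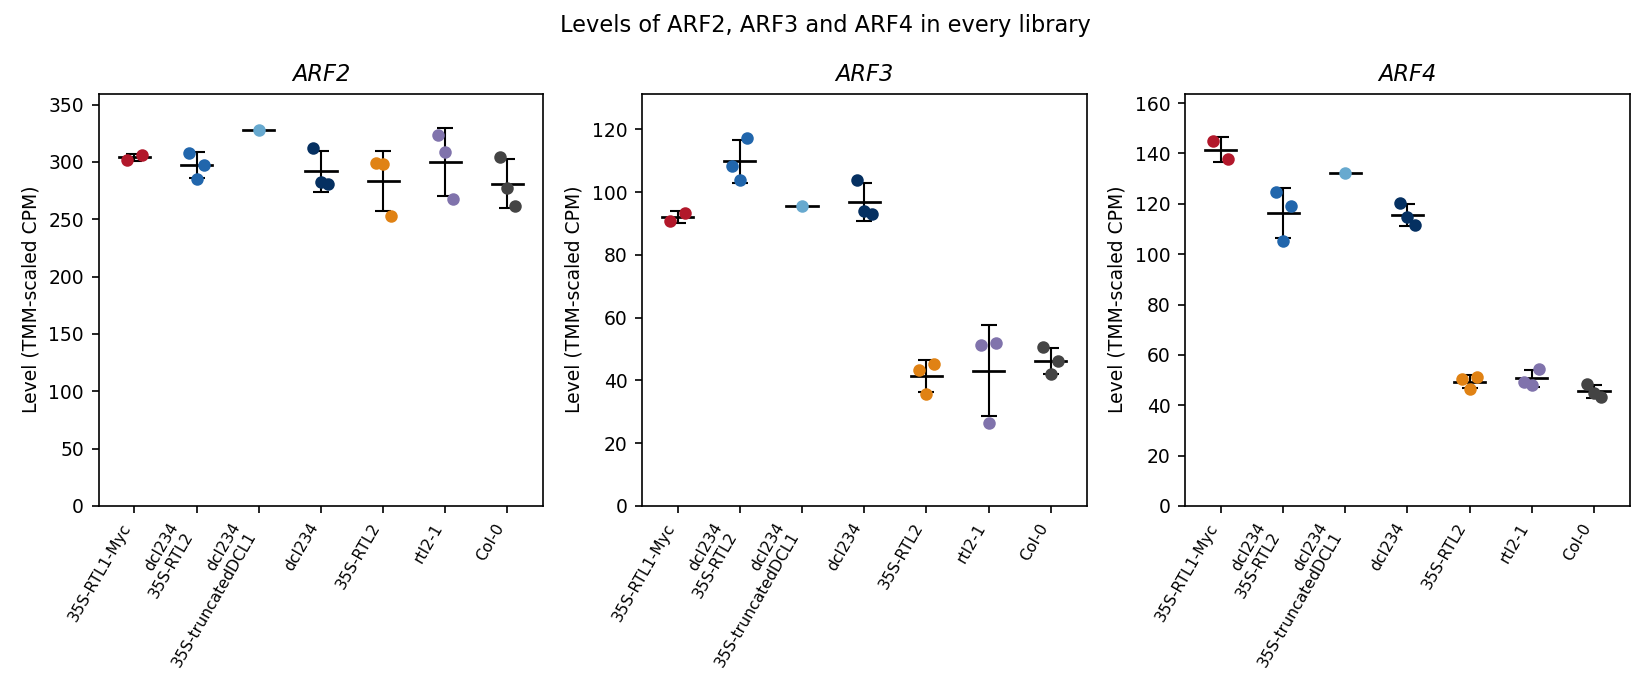
Level of ARF2, ARF3 and ARF4 (TMM-scaled CPM, axes from 0) in each library, by group, with the group mean as a line and the SD as bars (n = 3, except 2 for 35S-RTL1-Myc and 1 for dcl234 35S-truncatedDCL1). For ARF3 the 4 groups with RTL1 or the dcl234 background have means of 92.1 to 110 CPM, above the other 3 at 41.5 to 46.3 CPM, and ARF4 splits in the same places, while ARF2 means run from 281 to 328 CPM.

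ARF4, which acts with ARF3 in setting the abaxial leaf side, had 145 and 138 CPM in the 2 libraries of 35S-RTL1-Myc, against 48.3, 45.1 and 43.3 CPM in Col-0. Both 35S-RTL1-Myc libraries lay above every Col-0 library, and also above every other library in the series. The ratio was 3.10-fold, a log2 change of 1.63 (SE 0.09), with an adjusted p of 3.11e-08 by edgeR's quasi-likelihood test. In dcl234, ARF4 had 120, 115 and 111 CPM against the same Col-0 libraries, without overlap. Its log2 change there was 1.34 (SE 0.08, 2.53-fold, edgeR adjusted p = 3.63e-07), and by p-value it was row 3 of the 21343 tested.

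ARF3 encodes a factor that also shapes the flower's gynoecium and lacks the C-terminal interaction domain of most ARF proteins. It had 90.8 and 93.5 CPM in 35S-RTL1-Myc, against 50.5, 42.1 and 46.2 CPM in Col-0. The groups did not overlap, and the log2 change was 0.99 (SE 0.20, 1.99-fold, edgeR adjusted p = 0.00193). In dcl234 the libraries held 104, 93.9 and 93.1 CPM, again all above Col-0, with a log2 change of 1.07 (SE 0.18, 2.10-fold, edgeR adjusted p = 0.00543). This call was lost when a number from 1 to 3 that the submitters put in the names of the deposited tables was added to the model (log2 change 1.06, adjusted p = 0.0742). The labels do not say what that number marks. Replicates 1 and 2 of dcl234 carried number 1, which no Col-0 library carried, and replicate 3 carried number 3. Col-0 replicates 1 and 3 carried number 2 and replicate 2 number 3. The number and the dcl234 mutations thus cannot be fully told apart.

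ARF2, the most abundant of the 3, showed no such split. It had 302 and 306 CPM in 35S-RTL1-Myc and 313, 282 and 281 CPM in dcl234, against 304, 277 and 262 CPM in Col-0, and the libraries of all 3 groups overlapped. Its log2 change was 0.11 in 35S-RTL1-Myc (SE 0.10, 95% interval −0.11 to 0.33, edgeR adjusted p = 0.44) and 0.05 in dcl234 (SE 0.09, interval −0.14 to 0.25, edgeR adjusted p = 0.8). The upper bounds of these intervals lie below the lower bounds for ARF3, 0.56 in 35S-RTL1-Myc and 0.67 in dcl234.

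In all, 2 of 3 genes were called higher in each of these comparisons. The background differs greatly between them: 29.5% of all rows tested were called in 35S-RTL1-Myc against Col-0 and 14.8% were called higher, while dcl234 against Col-0 had 4.56% called and 0.754% called higher. Both comparisons use the same Col-0 libraries, so they are given side by side and not as independent. Within libraries of the same table number, ARF4 differed from Col-0 by 1.59 (number 2) and 1.69 (number 3) on the log2 scale in 35S-RTL1-Myc and by 1.31 (number 3) in dcl234. Number 2 set 1 library of 35S-RTL1-Myc against 2 of Col-0, and number 3 set 1 library against 1 in both comparisons. ARF3 differed by 0.95 and 1.11 in 35S-RTL1-Myc and by 1.15 in dcl234 in the same pairings, and ARF2 by 0.12, 0.12 and 0.02.

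**Figure D3:**
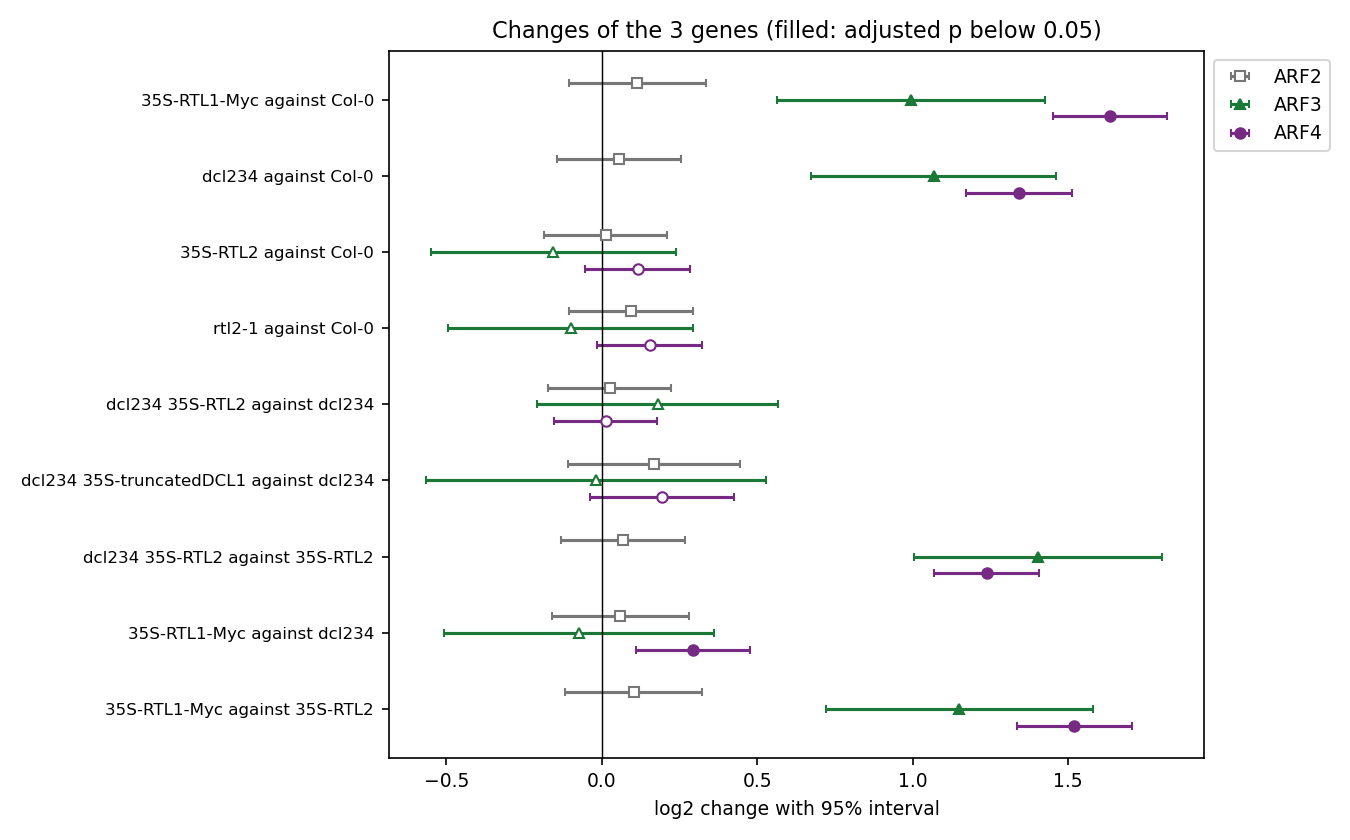
Log2 change of ARF2 (grey squares), ARF3 (green triangles) and ARF4 (purple circles) in 9 comparisons, with 95% intervals from the edgeR fit and filled symbols where the adjusted p was below 0.05. ARF3 and ARF4 are filled, at 0.99 to 1.63, where a group with RTL1 or dcl234 is set against Col-0 or 35S-RTL2, ARF4 is also filled, at 0.29, in 35S-RTL1-Myc against dcl234, and ARF2 is open throughout.

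The direct comparison of 35S-RTL1-Myc with dcl234 uses no Col-0 library. ARF4 was 1.23-fold higher in 35S-RTL1-Myc, with 145 and 138 CPM against 120, 115 and 111 CPM in dcl234 (log2 change 0.29, SE 0.09, edgeR adjusted p = 0.0233). The groups did not overlap, but the call held in 7 of 12 alternative settings, and leaving out either 35S-RTL1-Myc library ended it (log2 change 0.26, adjusted p = 0.165 without replicate 1; 0.33, adjusted p = 0.0514 without replicate 2). It also ended without dcl234 replicate 2 (0.29, adjusted p = 0.0548), without dcl234 replicate 3 (0.27, adjusted p = 0.0721) and with the table number in the model (0.32, adjusted p = 0.0628). ARF3 was at 90.8 and 93.5 CPM in 35S-RTL1-Myc and at 93.1 to 104 CPM in dcl234, a log2 difference of −0.07 with a 95% interval of −0.51 to 0.36. ARF2 differed by 0.06, with an interval of −0.16 to 0.28. Table number 3 is the only one both groups share, with 1 library each, and ARF4 differed by 0.38 there. In this comparison 22.9% of rows were called and 12.4% called higher, so 1 call among 3 genes stands near the background.

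RTL1 overexpression was also set against overexpression of its relative RTL2. In 35S-RTL1-Myc against 35S-RTL2, ARF4 differed by 1.52 on the log2 scale (SE 0.09, edgeR adjusted p = 5.77e-08) and ARF3 by 1.15 (SE 0.20, edgeR adjusted p = 6e-04), and the libraries of the groups overlapped for neither gene. The ARF2 difference of 0.10 had a 95% interval of −0.12 to 0.32, though its libraries did not overlap either (302 and 306 CPM against 253 to 299 CPM). Within table numbers 2 and 3, with 1 library of each group per number, the differences were 1.43 and 1.64 for ARF4 and 1.04 and 1.34 for ARF3. Here 33.6% of rows were called and 16.9% called higher.

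In 35S-RTL2, where RTL2 RNA was far above Col-0, the intervals of change of all 3 ARF genes included 0. ARF4 had 50.5, 46.4 and 51.2 CPM in 35S-RTL2, against 48.3, 45.1 and 43.3 CPM in Col-0 (log2 change 0.11, 95% interval −0.05 to 0.28). ARF3 had 43.4, 35.8 and 45.4 CPM against 50.5, 42.1 and 46.2 CPM in Col-0 (−0.16, interval −0.55 to 0.24), and ARF2 299, 299 and 253 CPM against 304, 277 and 262 CPM (0.01, interval −0.19 to 0.21). The libraries of the groups overlapped for each gene. Called genes numbered 0 of 3 by edgeR and by DESeq2, and 0 had an unadjusted p below 0.05, in a comparison with 0.00937% of rows called and 956 rows at an unadjusted p below 0.05.

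The rtl2-1 mutant had ARF4 at 49.4, 48.2 and 54.5 CPM (log2 change against Col-0 of 0.15, 95% interval −0.02 to 0.32) and ARF2 at 324, 309 and 267 CPM (0.09, interval −0.10 to 0.29). Its ARF3 libraries were less even, with 51.2, 26.4 and 51.8 CPM. The low value belongs to replicate 2, which also had the lowest mean correlation of log2 CPM with its own group (r = 0.966 across genes, which are not independent replicates). The libraries overlapped those of Col-0 for each gene. With replicate 2 the ARF3 change was −0.10 (interval −0.49 to 0.29), and without that replicate it was 0.16. Again 0 of 3 genes were called by edgeR or DESeq2, with 0 at an unadjusted p below 0.05, beside 0.122% of all rows.

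On the dcl234 background, adding RTL2 left the ARF3 and ARF4 levels high. ARF3 had 108, 104 and 117 CPM in dcl234 35S-RTL2, against 104, 93.9 and 93.1 CPM in dcl234 (log2 change 0.18, 95% interval −0.21 to 0.57). ARF4 had 125, 105 and 119 CPM against 120, 115 and 111 CPM in dcl234 (0.01, interval −0.15 to 0.18), and ARF2 308, 285 and 298 CPM against 313, 282 and 281 CPM (0.02, interval −0.17 to 0.22). The libraries overlapped for each gene, and 0 of 3 genes were called by edgeR or DESeq2, with 0 at an unadjusted p below 0.05, in a comparison that called 0.0609% of rows. The effect of RTL2 in dcl234 minus its effect in wild-type plants was 0.34 for ARF3 (interval −0.22 to 0.89), −0.10 for ARF4 (−0.34 to 0.13) and 0.01 for ARF2 (−0.27 to 0.29). For that difference too 0 of 3 were called by either tool and 0 had an unadjusted p below 0.05, with 0.00937% of rows called.

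The dcl234 effect could be read a further time between the plants that carry 35S-RTL2, which share no library with dcl234 or Col-0. In dcl234 35S-RTL2 against 35S-RTL2, ARF3 differed by 1.40 on the log2 scale (SE 0.19, 2.64-fold, edgeR adjusted p = 0.000311) and ARF4 by 1.24 (SE 0.08, 2.36-fold, edgeR adjusted p = 5.79e-07), with no overlap of libraries for either. ARF2 differed by 0.07, with a 95% interval of −0.13 to 0.27. Within table numbers 1 and 3, ARF3 differed by 1.29 and 1.71 and ARF4 by 1.18 and 1.36. Number 1 held 2 libraries of dcl234 35S-RTL2 and 1 of 35S-RTL2, and number 3 held 1 of each. Of all rows 20.9% were called in this comparison and 9.11% called higher. RTL2 RNA itself also differed between these groups, at 1829 ± 199 CPM in dcl234 35S-RTL2 and 557 ± 53.5 CPM in 35S-RTL2.

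Truncated DCL1 in dcl234 was 1 library, assumed in the fit to vary like the other groups, and has no replicate check. It held 328 CPM of ARF2, 95.7 CPM of ARF3 and 132 CPM of ARF4. The ARF2 value lay above all 3 dcl234 libraries (281 to 313 CPM), the ARF4 value likewise (111 to 120 CPM), and the ARF3 value inside their range (93.1 to 104 CPM). The log2 changes were 0.17 for ARF2 (95% interval −0.11 to 0.44), −0.02 for ARF3 (−0.57 to 0.53) and 0.19 for ARF4 (−0.04 to 0.43). None of the 3 was called by edgeR or DESeq2 and 0 had an unadjusted p below 0.05, beside 5.65% of rows called.

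Ordered by mean, ARF4 ran from 35S-RTL1-Myc (141 CPM) through the truncated DCL1 library (132), dcl234 35S-RTL2 (116) and dcl234 (115) to rtl2-1 (50.7), 35S-RTL2 (49.4) and Col-0 (45.6). The last 3 groups overlapped with their neighbours in that order, as did dcl234 35S-RTL2 and dcl234. ARF3 ran from dcl234 35S-RTL2 (110 CPM) through dcl234 (97.0), the truncated DCL1 library (95.7) and 35S-RTL1-Myc (92.1) to Col-0 (46.3), rtl2-1 (43.1) and 35S-RTL2 (41.5), with a gap between neighbours' libraries between the truncated DCL1 library and 35S-RTL1-Myc and again between 35S-RTL1-Myc and Col-0. ARF2 ran only from 328 CPM in the truncated DCL1 library to 281 CPM in Col-0, and below that first library every neighbouring pair overlapped.

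Per kilobase of coding sequence, ARF2 was the highest of the 3 genes in every group. In 35S-RTL1-Myc it stood at 118 ± 1.19 CPM per kb, ARF3 at 50.4 ± 1.04 and ARF4 at 59.8 ± 2.12 CPM per kb. In dcl234 the levels were 113 ± 6.91 CPM per kb for ARF2, 53.1 ± 3.31 for ARF3 and 48.8 ± 1.85 for ARF4. In Col-0 they were 109 ± 8.24, 25.3 ± 2.32 and 19.3 ± 1.07 CPM per kb (SD). Thus ARF4 per kb was above ARF3 in 35S-RTL1-Myc and in the single truncated DCL1 library (55.8 against 52.4 CPM per kb). In Col-0, dcl234 and the remaining groups it was below ARF3.

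Ratios of raw counts within a library do not depend on scaling. The log2 ratio of ARF4 to ARF3 was 0.56 and 0.68 in 35S-RTL1-Myc and 0.21 to 0.29 in dcl234, against −0.09 to 0.10 in Col-0. These 3 groups did not overlap. The ratio was also above every Col-0 library in 35S-RTL2, at 0.17 to 0.38, which overlapped dcl234, and it was 0.02 to 0.20 in dcl234 35S-RTL2, which overlapped Col-0. The ratio thus did not separate the groups on the dcl234 background from those with wild-type DCL genes. The mean difference from Col-0 was 0.64 in 35S-RTL1-Myc (two-sided exact permutation p = 0.2, the smallest that these group sizes allow) and 0.27 in dcl234 (exact permutation p = 0.1, again the smallest possible). For ARF4 to ARF2 the differences were 1.52 and 1.29, and for ARF3 to ARF2 0.88 and 1.01, in 35S-RTL1-Myc and in dcl234, at those same exact permutation p-values. No p below 0.05 could be reached with these group sizes, and the p-values of these 6 ratio differences were not adjusted.

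**Figure D4:**
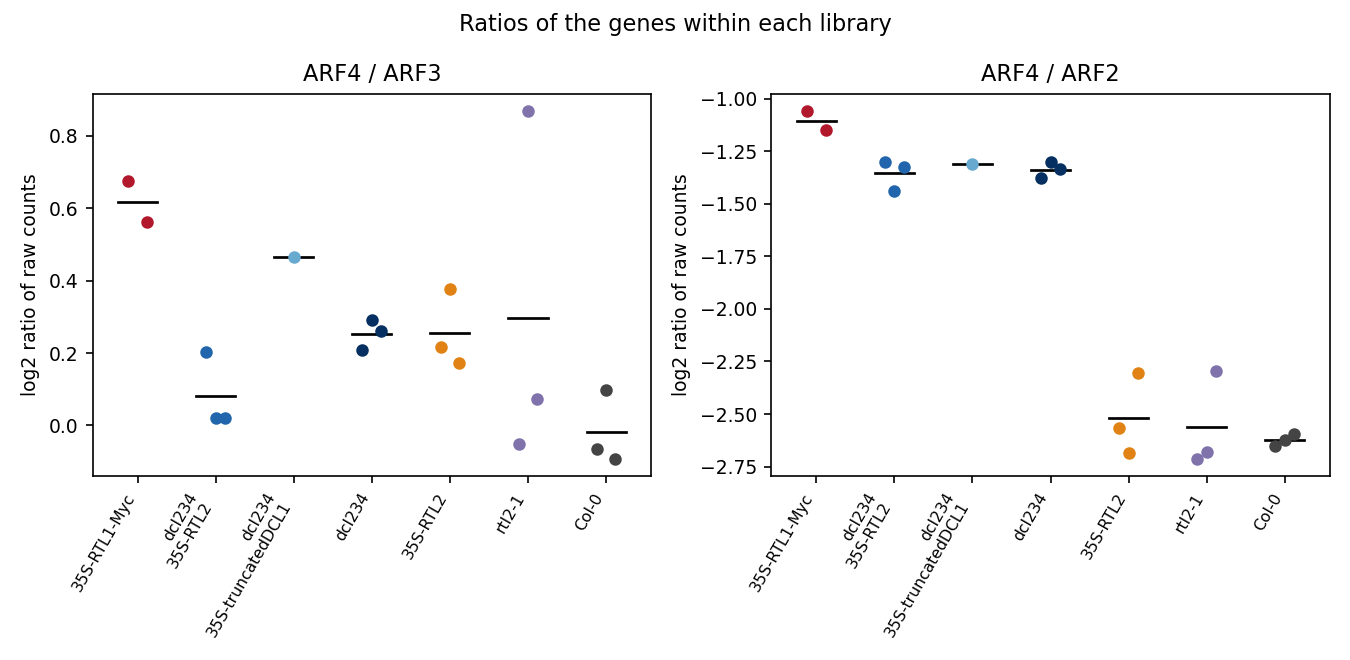
Log2 ratio of raw counts of ARF4 to ARF3 (left) and of ARF4 to ARF2 (right) in each library, by group, with group means as lines. The ARF4 to ARF3 ratio lies at 0.56 and 0.68 in 35S-RTL1-Myc and at −0.09 to 0.10 in Col-0, and the rtl2-1 library with the low ARF3 level is the highest point on the left.

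Over all 18 libraries, log2 CPM of ARF3 and ARF4 correlated at r = 0.926, a description that the split between groups dominates. After the group means were subtracted, r was 0.527 over the 17 libraries with a replicate. ARF2 gave r = 0.231 with ARF3 and 0.353 with ARF4 over all 18. Over the 7 group means and 18512 rows with at least 1 CPM on average, the rows most like ARF3 were MAKR2, a membrane-associated kinase regulator (r = 0.997), the MAP kinase gene MPK1 (0.994) and the tubby-like gene TLP9 (0.993). Their log2 changes were 0.31, 0.30 and 0.18 in 35S-RTL1-Myc and 0.30, 0.31 and 0.19 in dcl234, each smaller than that of ARF3 (0.99 and 1.07). Most like ARF4 were the glycosyltransferase gene UGT73C7 (0.994), AT1G65950 (0.993) and CYP77A5P (0.991). Their log2 changes were 0.77, 0.27 and 0.21 in 35S-RTL1-Myc and 0.59, 0.21 and 0.19 in dcl234. Most like ARF2 were the histone chaperone gene HIRA (0.989), RAP74 (0.986) and AT2G47410 (0.984). These changed by only 0.13, 0.06 and 0.13 in 35S-RTL1-Myc and 0.06, 0.04 and 0.08 in dcl234. All named rows were picked for the highest r of 18512, over 7 means of which 1 is a single library. ARF4 itself was in place 93 for ARF3 (r = 0.961).

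The genes that make tasiARFs were read next, from a list of 17 of which 15 passed the filter on low counts, 2 of them in rows joined to another gene. TAS3, the main precursor, was higher in 35S-RTL1-Myc, with 31.0 and 31.3 CPM against 10.2 to 12.1 CPM in Col-0 and no overlap (log2 change 1.46, SE 0.20, edgeR adjusted p = 9.22e-05). SGS3, which stabilises the RNA that RDR6 copies, rose by 0.55 (SE 0.09), DCL4 by 0.54 (SE 0.14) and DRB4, the double-stranded RNA binding partner of DCL4, by 0.46 (SE 0.10), with edgeR adjusted p-values of 0.000368, 0.0113 and 0.00249. RDR6 was the only other member called (0.32, SE 0.09, edgeR adjusted p = 0.0173) and is named because it completes the count. In all 5 of 15 were called higher and 0 lower there, beside 14.8% of all rows called higher, with a median log2 change of 0.25 over the 15.

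In dcl234 against Col-0, 0 of the 15 were called by edgeR, beside 4.56% of all rows, although 4 had an unadjusted p below 0.05 and DESeq2 called 1. TAS3 had 15.1 to 19.5 CPM in dcl234, above all Col-0 libraries (log2 change 0.58, SE 0.19, edgeR adjusted p = 0.0978), and the median over the 15 was 0.08. TAS3B, a lowly expressed second copy named after its values were seen, had 1.99 to 3.07 CPM in dcl234, against 0.502 to 1.13 CPM in Col-0, without overlap (log2 change 1.65, SE 0.57, edgeR adjusted p = 0.132), and 1.09 and 1.19 CPM in 35S-RTL1-Myc. Between 35S-RTL1-Myc and dcl234 TAS3 differed by 0.88 (SE 0.20, edgeR adjusted p = 0.00484). In dcl234 35S-RTL2 against 35S-RTL2, 6 of 15 were called higher and 0 lower, beside 9.11% of all rows called higher, led by RDR6 (0.48, SE 0.08, edgeR adjusted p = 0.0019), SGS3 (0.35, SE 0.08, edgeR adjusted p = 0.0096) and TAS3 (0.77, SE 0.19, edgeR adjusted p = 0.0117). The joined row of DCL1, the gene that the construct carries in truncated form, held 1417 CPM in the single dcl234 35S-truncatedDCL1 library and 149 CPM in dcl234. The precursors of miR390a and miR390b had too few counts to be tested.

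**Figure D5:**
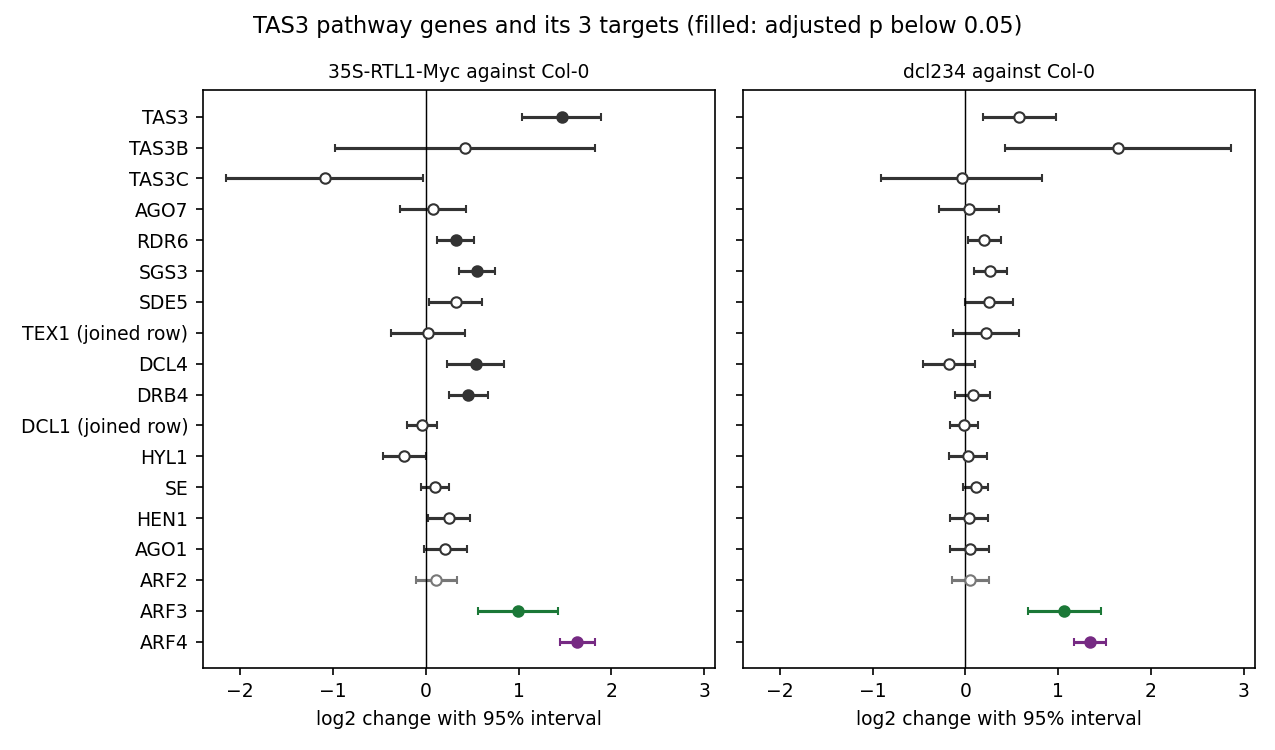
Log2 change with 95% interval (edgeR) of the 15 tested TAS3 pathway genes and of ARF2, ARF3 and ARF4 in 35S-RTL1-Myc against Col-0 (left) and dcl234 against Col-0 (right), filled where the adjusted p was below 0.05. On the left TAS3 stands at 1.46 and 5 pathway genes are filled, and on the right ARF3 and ARF4 are the only filled points.

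The other ARF genes give the family's background. Of 19 listed, 14 were tested, 2 of them in rows joined to another gene. In 35S-RTL1-Myc against Col-0, 4 were called higher, beside 14.8% of all rows: ARF10 (log2 change 0.62, SE 0.07), ARF8 (0.48, SE 0.08), ARF17 (0.53, SE 0.10) and ARF19 (0.26, SE 0.09), with edgeR adjusted p-values of 1.97e-05, 0.000497, 0.00107 and 0.0452. ARF10, ARF17 and ARF8 are themselves known targets of microRNAs, miR160 for the first pair and miR167 for ARF8. ARF16, another miR160 target, and ARF6, another miR167 target, were not called. Their means were 46.4 and 298 CPM in 35S-RTL1-Myc, against 44.8 and 310 CPM in Col-0. None of the 4 called genes exceeded the log2 change of ARF3 or ARF4. In dcl234 against Col-0, 0 of the 14 were called by edgeR or DESeq2, with 2 at an unadjusted p below 0.05, beside 4.56% of all rows called by edgeR. The median over the 14 was 0.27 in 35S-RTL1-Myc and 0.06 in dcl234, while the medians over all rows were −0.00 and 0.01.

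Of 11 leaf polarity genes, with which ARF3 and ARF4 act, 2 were in rows joined to another gene. In 35S-RTL1-Myc against Col-0, 3 of the 11 were called higher and 0 lower, beside 14.8% of all rows called higher. These were the adaxial factor gene PHB (log2 change 0.63, SE 0.12, edgeR adjusted p = 0.0014), the abaxial factor gene KAN2 (0.42, SE 0.12, edgeR adjusted p = 0.0162) and AS1, whose protein is known to repress ARF3 (0.68, SE 0.10, edgeR adjusted p = 0.000213). In dcl234 the abaxial gene YAB3 was the 1 member called (0.63, SE 0.14, edgeR adjusted p = 0.0219), at 29.5 CPM in dcl234 and 19.1 CPM in Col-0. Of all rows, 4.56% were called in dcl234 against Col-0 and 0.754% called higher. Of 11 genes reported downstream of the 3 ARF proteins, 10 were tested. In 35S-RTL1-Myc the homeobox gene KNAT1 was higher (0.89, SE 0.18, edgeR adjusted p = 0.00176) and the zinc-finger homeobox gene HB33 lower (−0.79, SE 0.26, edgeR adjusted p = 0.0333), so 2 of 10 were called in a comparison that called 29.5% of all rows. In dcl234 0 of the 10 were called by edgeR, beside 4.56% of all rows, with 2 at an unadjusted p below 0.05 and 2 called by DESeq2.

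Circadian clock genes moved with 35S-RTL1-Myc, 1 of those listed being in a row joined to another gene. Of 11 clock genes, 4 were called higher and 6 lower against Col-0, beside 29.5% of all rows called. They were led by the morning gene LHY at 127 CPM in 35S-RTL1-Myc and 3.82 CPM in Col-0 (log2 change 5.05, SE 0.27, edgeR adjusted p = 3.11e-08). The 2 libraries of 35S-RTL1-Myc were uneven in ELF4 (1.12 and 25.8 CPM), PRR5 (13.2 and 59.8 CPM) and LUX (7.46 and 24.4 CPM). They were closer in LHY (104 and 149 CPM) and RVE8 (51.0 and 58.8 CPM). The truncated DCL1 library also had 5 clock genes called higher and 2 lower against dcl234, beside 5.65% of all rows called. The part of this shift in the ARF and TAS3 values of those 2 groups was not tested. In dcl234 against Col-0, 0 of the 11 clock genes were called by edgeR or DESeq2, with 1 at an unadjusted p below 0.05, beside 4.56% of all rows called.

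Outside the ARF family, 5 genes had a stretch with at most 3 mismatches to the TAS3 windows, and 4 of them had a row that was tested. They were chosen by sequence after results of these data were known. In dcl234 against Col-0 their log2 changes ran from −0.18 (CGLD27) to 0.15 (AT1G63240), with edgeR adjusted p-values of 0.334 to 0.957. In 35S-RTL1-Myc CGLD27 differed by 0.78 (SE 0.10, edgeR adjusted p = 5.76e-05) and TRM21 by 0.31 (SE 0.11, edgeR adjusted p = 0.0482). No annotated gene overlaps the 3 ARF genes. AT2G33855 lies within 50 bases of ARF3 and differed by −0.02 in 35S-RTL1-Myc and 0.18 in dcl234, with neither called by edgeR (adjusted p = 0.962 and 0.636).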

How the data were processed

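The authors deposited 1 table of raw read counts per library. The submitters' processing notes name the TAIR9 build. Which aligner and counter were used, and whether strand was read, is not given in the sources used here, so antisense reads cannot be told apart. From these counts, edgeR 4.0.16 in R 4.3.3 gave the tests: filterByExpr, TMM scaling and a quasi-likelihood model that fits 1 mean for each group to all 18 libraries together, with a shared estimate of spread (biological coefficient of variation 15.1%). DESeq2 1.42.0 was an alternative, as were other scaling, no filter, separate fits, added terms and leaving out each library. A further setting, without the truncated DCL1 library, was chosen after seeing the data. SEs come from the F statistic. The model was tested on simulated counts. Named list members are up to 4 with the smallest adjusted p in a comparison. The genes and lists were chosen with earlier results of these data known. Replicates differed by more than sampling noise (lowest chi-square over its degrees of freedom 4.91). Sequences and coordinates are from RefSeq TAIR10.1.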

Additional observations from a re-analysis of the deposited data

How the results depend on the processing

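Of 384 recomputed values for the 3 genes, 378 kept their side of the threshold, 6 fell short of it, and no called change turned its sign. Many of the 384 belong to changes not called in the main fit, such as all of ARF2, and kept their side by staying uncalled. The 6 losses were all in called changes. ARF4 in 35S-RTL1-Myc against dcl234 was called in 7 of 12 settings, and ARF3 in dcl234 against Col-0 in 12 of 13. Changes that were never called could change sign, as ARF3 in rtl2-1 did (−0.25 to 0.16 with a library left out). With the table number as a term, dcl234 against Col-0 kept 1 of 2 calls (ARF3 1.06, adjusted p = 0.0742), and 35S-RTL1-Myc against dcl234 kept 0 (ARF4 0.32, adjusted p = 0.0628). ARF4 in 35S-RTL1-Myc against dcl234 ranged from 0.26 to 0.33 with a library left out, and the calls from 0 to 1. The cause was not tested. ARF3 in 35S-RTL1-Myc ranged from 0.93 to 1.06 and ARF4 from 1.59 to 1.68, called in all 12 settings. ARF4 in dcl234 was called in all 13, with a log2 change of at most 1.38.

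Counts over all rows moved more. Those in dcl234 against Col-0 were 973, against 1471 with DESeq2, 3336 with the groups fitted alone, 149 with the table number and 282 to 562 with a library left out. For rtl2-1 the count was 26, against 140, 1, 15 and 12 to 54 under those settings. For DESeq2 it was 7 in place of 2 for 35S-RTL2, 51 in place of 13 for dcl234 35S-RTL2 against dcl234 and 11 in place of 2 for the difference of RTL2 effects, which gave 0 with the table number and 0 to 2 with a library left out. Truncated DCL1 gave 2942 in place of 1205 when fitted alone. Leaving out a library gave 3939 to 5212 in place of 6289 for 35S-RTL1-Myc against Col-0, 9 to 32 in place of 13 for dcl234 35S-RTL2 against dcl234, 1952 to 5912 in place of 4461 for dcl234 35S-RTL2 against 35S-RTL2, 2374 to 3918 in place of 4897 for 35S-RTL1-Myc against dcl234 and 4664 to 7175 in place of 7181 for 35S-RTL1-Myc against 35S-RTL2.

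Replicate numbers were not taken as pairs, since in none of the 5 comparisons with 3 shared numbers did the deviations of every same-numbered pair correlate above 0.1. The data give mixed hints. Same-numbered libraries correlated at 0.0975 to 0.253 for dcl234 and Col-0, where 6 of 6 libraries correlated best with their own number, at 0.0494 to 0.278 for 35S-RTL2 and Col-0 (4 of 6) and at 0.0259 to 0.437 for rtl2-1 and Col-0 (4 of 6), but at −0.302 to 0.00917 for dcl234 35S-RTL2 and dcl234 and −0.179 to −0.0286 for dcl234 35S-RTL2 and 35S-RTL2 (0 of 6 each). With the replicate number as a block, 1156 rows were called in dcl234 against Col-0, and no call of the 3 genes changed in the 9 comparisons fitted so. The block was not run for truncated DCL1, which has no replicate number in the labels.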
